A study of Mus musculus with 2 samples.

Results

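The collagen chain genes encode the polypeptides that assemble into the trimeric collagens of bone, cartilage and the surrounding stroma. They were taken here as all genes whose symbol in the feature lists of the libraries is Col, a number, a and a number, which gave 44 of 27998 genes, and 43 of the 44 had at least 1 UMI (unique molecular identifier, 1 per captured mRNA molecule). The study asked how mesenchymal cells of the growing bone metaphysis respond to teriparatide, the bone anabolic fragment of parathyroid hormone. Gli1-CreERT2; Ai9 mice of mixed background were 1 month old when they received tamoxifen, which switches on the tdTomato reporter in cells with an active Gli1 gene and so in these cells and their later progeny. Afterwards 1 group received vehicle and the other teriparatide at 400 ng per g of body weight intraperitoneally, as daily injections on 3 days, and tdTomato+ CD31- CD45- Ter119- cells of the femoral metaphysis were sorted and sequenced on the 10x Genomics platform. Mice of both sexes were used, and with 1 library per group there is no replicate: no test was made, every 95% interval covers counting error only, and a difference between the libraries cannot be told apart from a difference between the mice or preparations. A level is the share of a gene in the UMIs of all cells of 1 class and library, per 1000000 UMIs (CPM), and pairs of values are in the order vehicle and teriparatide, and log2 ratios are teriparatide over vehicle. The libraries count 3' ends, 1 UMI for a molecule whatever its length, so CPM is not divided by length and the genes are compared on this scale.

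The vehicle library held 1286 barcodes with 10567335 UMIs and the teriparatide library 2142 with 26270041, 2 barcode sequences occurred in both, and 549 and 1217 cells passed the limits on genes and mitochondrial UMIs. Mesenchymal cells fell into 6 classes named from markers among which there was no collagen: osteoblast-like (OB, 95 and 93 cells), osteocyte-like (Ocy, 18 and 36), preosteoblast-like (preOB, 61 and 54), chondrocyte-like osteoprogenitor-like (COP, 66 and 265), marrow adipogenic lineage precursor-like (MALP, 125 and 80) and hypertrophic chondrocyte-like cells (5 and 18). The median cell held between 6072 UMIs, in the Ocy-like cells of the vehicle library, and 30922, in the COP-like cells of the teriparatide library. The mural markers Rgs5 and Acta2 were among the 10 leading genes of the preOB-like cluster, whose 5 mural markers summed to 1844 and 1656 CPM with none at 0, against no more than 509 CPM in another class. Endothelial markers summed to at most 8.47 CPM in any class, with 2 to 5 of the 5 at 0. Fibroblast markers reached at most 60.8 CPM, muscle markers 25.8 CPM and tendon markers 134 CPM, and the sum of the Schwann cell markers was highest in the COP-like cells (374 and 359 CPM), with Sox10 present there. Erythroid-like cells (51 and 165), which were taken to express no collagen, were used for the level of free RNA. They held 0.0268% and 0.0291% of their UMIs in collagen chain genes, with 3.6% in the highest cell of the vehicle library. Their Col5a1 stood at 38 and 24.4 CPM, against 1.5 and 2.69 CPM in hematopoietic-like cells. Whether all of their collagen UMIs were free RNA was not tested. Of the cells with a sex call, 29 and 79 OB-like cells were male and 58 and 5 female, and 52 and 229 COP-like cells were male and 11 and 25 female, so the libraries differed in sex makeup, although the study's methods give both groups the same numbers of males and females.

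Collagens differ in what they build. The fibrillar collagens form the fibres that give tissues tensile strength, with type I the main protein of bone matrix, type II that of cartilage, type III common in stroma and around vessels, and types V and XI regulating the width of the fibres. FACIT collagens sit on the surface of fibrils, type IV forms the network of basement membranes, type VI makes beaded filaments around cells, type VIII and type X make short-chain networks, and type X marks hypertrophic cartilage. In the metaphysis cartilage matrix of the growth plate is replaced by type I bone matrix, so these genes separate the cell types that lie beside each other there.

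The stretches of 250 bases before the start of Col9a1 (chr1:24177360-24177609), Col11a1 (chr3:114030290-114030539), Col10a1 (chr10:34389731-34389980) and Col3a1 (chr1:45311288-45311537), all on the plus strand of GRCm38.p6 and from RefSeq, are shown because these members stood for the 4 patterns below: a chain largely limited to COP-like and hypertrophic cells, a chain of both COP-like and OB-like cells, the chain of hypertrophic cells and a chain of preOB-like cells. Capitals mark matches to the TATA box (TATAAA) or the SOX motif (ACAAAG), searched on both strands.
Col9a1: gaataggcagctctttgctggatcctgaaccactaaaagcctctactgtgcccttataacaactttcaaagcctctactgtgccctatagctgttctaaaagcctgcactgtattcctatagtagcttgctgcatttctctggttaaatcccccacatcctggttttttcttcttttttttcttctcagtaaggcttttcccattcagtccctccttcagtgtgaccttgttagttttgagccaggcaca
Col11a1: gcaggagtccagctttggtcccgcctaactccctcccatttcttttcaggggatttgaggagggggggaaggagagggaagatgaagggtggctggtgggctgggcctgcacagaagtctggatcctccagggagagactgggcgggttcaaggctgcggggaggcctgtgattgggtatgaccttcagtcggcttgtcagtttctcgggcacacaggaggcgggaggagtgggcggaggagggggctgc
Col10a1: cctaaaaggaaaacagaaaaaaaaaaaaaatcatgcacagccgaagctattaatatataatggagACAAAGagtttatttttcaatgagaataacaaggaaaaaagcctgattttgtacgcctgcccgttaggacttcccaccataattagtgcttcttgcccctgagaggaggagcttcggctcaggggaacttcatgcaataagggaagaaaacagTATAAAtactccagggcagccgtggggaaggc
Col3a1: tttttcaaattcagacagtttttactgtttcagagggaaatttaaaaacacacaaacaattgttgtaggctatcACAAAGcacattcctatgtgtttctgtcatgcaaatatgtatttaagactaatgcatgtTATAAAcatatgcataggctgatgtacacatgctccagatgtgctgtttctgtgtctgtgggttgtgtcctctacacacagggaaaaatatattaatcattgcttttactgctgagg
Col10a1 held the TATA box letters 32 bases and the SOX letters 185 bases before its start, Col3a1 held them 117 and 176 bases before, and the windows of Col9a1 and Col11a1 held neither. RefSeq windows were found for 35 of the 44 members. The TATA letters stood in the windows of 5 members (Col3a1, Col10a1, Col11a2, Col13a1 and Col17a1) and in 12.4% of all 32851 windows of this length. The SOX letters stood in those of 4 members (Col3a1, Col10a1, Col20a1 and Col28a1) and in 16.5% of all windows. The RUNX letters TGTGGT stood in those of 3 members (Col8a1, Col17a1 and Col18a1) and in 14.0% of all windows. A match of letters is a description of the sequence and not of a bound site.

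Collagen chain genes took the largest share of the mRNA in OB-like cells, where they held 23.7% and 21.4% of all UMIs in the vehicle and teriparatide libraries. Hypertrophic chondrocyte-like cells followed with 16.9% and 12.6%, COP-like cells with 7.15% and 7.32%, preOB-like cells with 3.02% and 6.09%, Ocy-like cells with 4.36% and 1.57% and MALP-like cells with 0.844% and 1.06%. Single cells differed widely within a class. The lowest, median and highest OB-like cell held 2.58%, 24.3% and 45.5% with vehicle and 3.95%, 21.7% and 43.3% with teriparatide. COP-like cells held 0.851%, 6.62% and 18.2% and 0.843%, 6.62% and 22.8%. Hypertrophic cells held 11.4%, 13.9% and 22.2% and 0.472%, 15.5% and 28.9%. In preOB-like cells the values were 0.159%, 1.41% and 17.2% with vehicle and 0.856%, 4.17% and 15.5% with teriparatide. In Ocy-like cells they were 0.0614%, 0.259% and 28.1% with vehicle and 0.0131%, 0.181% and 8.83% with teriparatide. The median MALP-like cell held 0.709% and 0.92%, above the median Ocy-like cell in both libraries, although the pooled share of the Ocy-like class was larger.

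**Figure D1:**
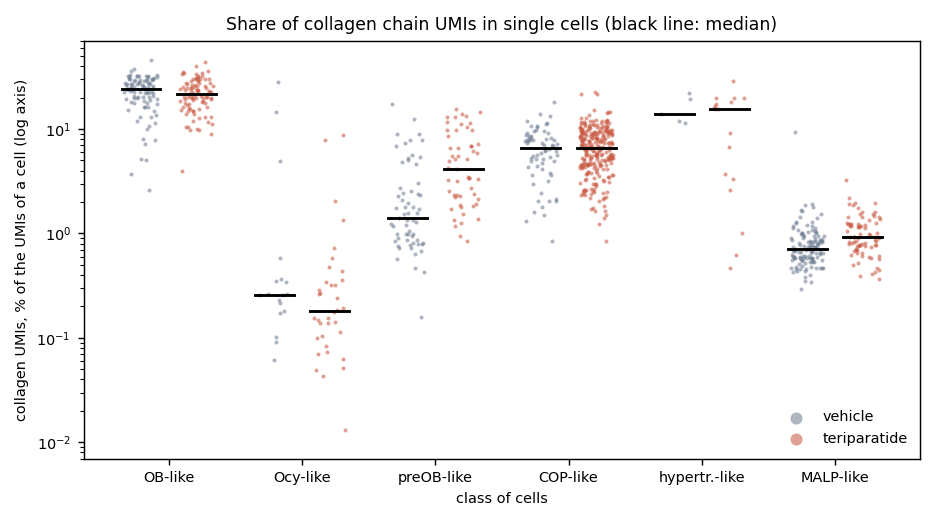
Share of the UMIs of single cells held by collagen chain genes (y axis, percent), by class and library, on a log axis, with each point 1 cell and the black line the median. OB-like medians stand at 24.3% and 21.7%, MALP-like medians below 1%, and the preOB-like median at 1.41% with vehicle and 4.17% with teriparatide.

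The classes also differed in which collagens they made. Fibrillar chains held 99.5% and 99.2% of the collagen UMIs in OB-like cells, 99.1% and 98.5% in Ocy-like, 75.8% and 84.6% in preOB-like, 71.9% and 73.2% in COP-like, 47.9% and 51.1% in MALP-like and 25.1% and 30.6% in hypertrophic cells. FACIT chains held 25% and 22.7% in COP-like cells, where type IX made up most of them. The beaded filament chains held 23% and 18.2% in MALP-like and 12.5% and 8.65% in preOB-like cells. Basement membrane chains held 18.8% and 17.9% in MALP-like cells, and short-chain network collagens held 67.6% and 60.9% in hypertrophic cells, nearly all of it Col10a1.

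**Figure D2:**
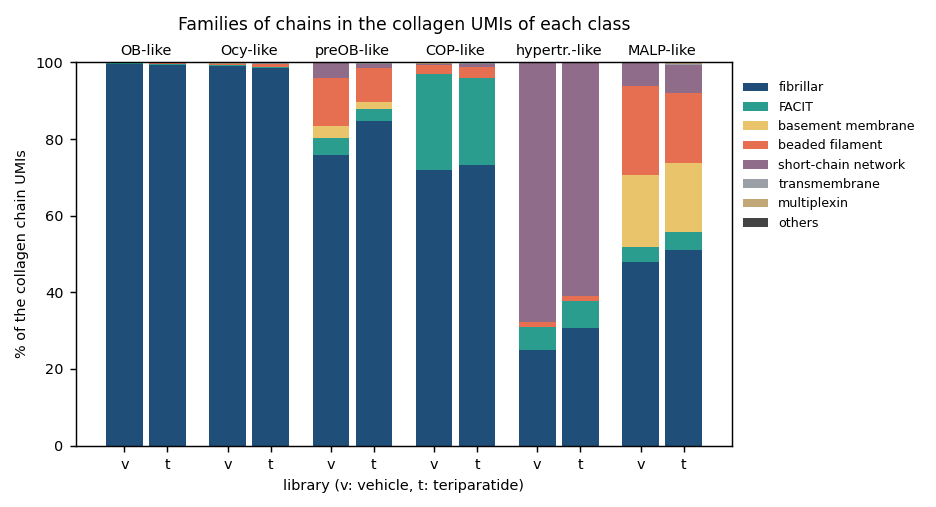
Makeup of the collagen UMIs (percent) by family in each class and library. The fibrillar family fills over 98% of the bar in OB-like and Ocy-like cells, while in MALP-like cells beaded filament chains hold 23% and 18.2% and basement membrane chains 18.8% and 17.9%, and in hypertrophic cells the short-chain network holds 67.6% and 60.9%.

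With at least 50 UMIs in each library as the minimum, 30 members could be given a class of highest level in both libraries, and 25 of them had the same one in both. COP-like cells were highest for 11 (Col2a1, Col8a2, Col9a1, Col9a2, Col9a3, Col11a1, Col11a2, Col15a1, Col25a1, Col26a1 and Col27a1), OB-like cells for 6 (Col1a1, Col1a2, Col5a1, Col5a2, Col13a1 and Col22a1), preOB-like cells for 5 (Col3a1, Col6a1, Col6a2, Col12a1 and Col18a1), MALP-like cells for 2 (Col4a1 and Col4a2) and hypertrophic cells for Col10a1. Ocy-like cells were highest for none. The highest class differed between the libraries for 5 (Col5a3, Col6a3, Col8a1, Col16a1 and Col24a1). For Col25a1 in both libraries, for Col5a3, Col6a3 and Col24a1 with vehicle and for Col8a1, Col8a2 and Col18a1 with teriparatide, the interval of the ratio between the highest and the next class included no difference.

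**Figure D3:**
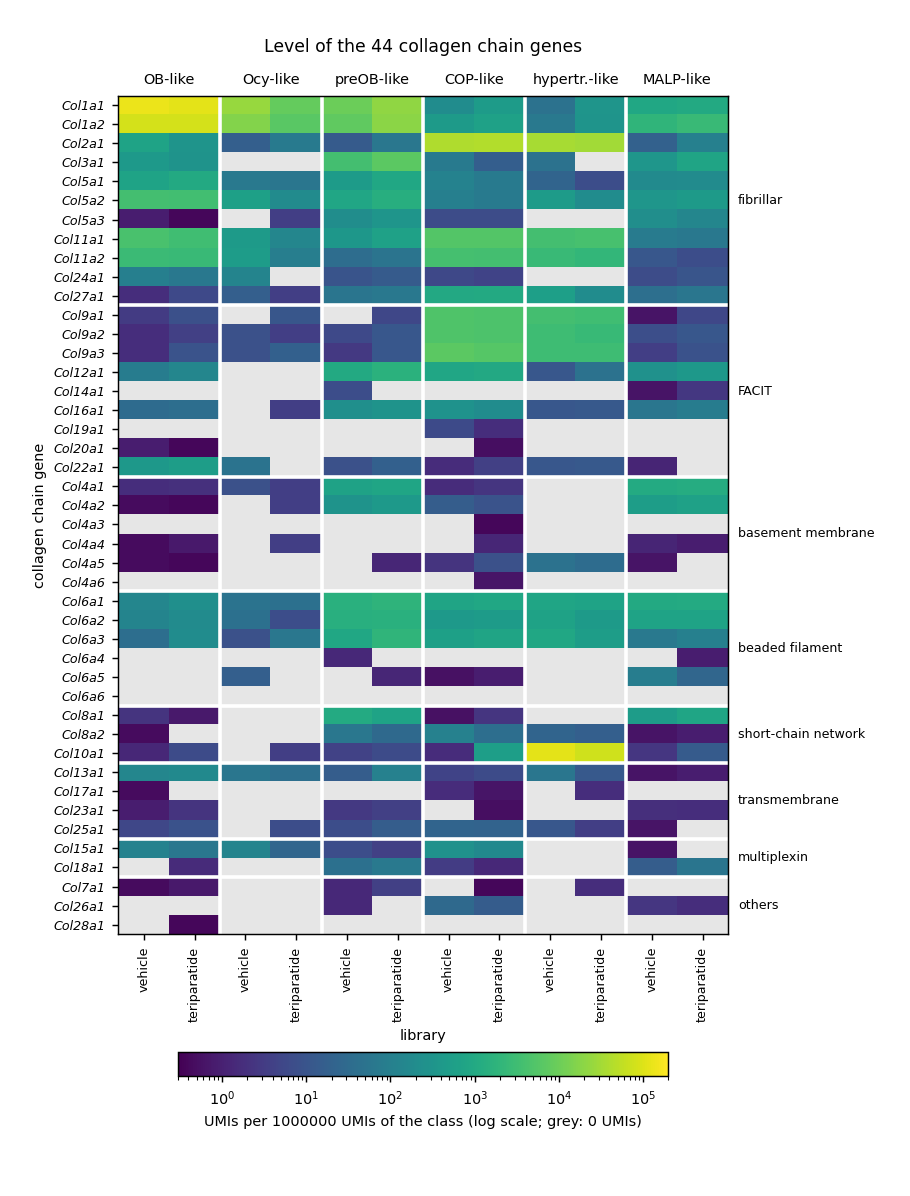
Level of each collagen chain gene (colour, CPM on a log scale, grey where there is no UMI) in each class and library, with the genes ordered by family. The type I chains are brightest in OB-like cells, the type II, IX and XI chains in COP-like cells, Col10a1 in hypertrophic cells and Col4a1 and Col4a2 in MALP-like cells.

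Type I collagen dominated the bone-lineage classes. Col1a1 (ENSMUSG00000001506, chromosome 11 from 94936224 to 94953042 on GRCm38) reached 138076 and 115782 CPM in OB-like cells, with medians over cells of 144095 and 118548 CPM, and Col1a2 (ENSMUSG00000029661, chromosome 6 from 4504814 to 4541544) stood at 85556 and 85248 CPM. COP-like cells lay far below this, where Col1a1 had 204 and 461 CPM and Col1a2 449 and 633 CPM. Few cells carried much of this, as the medians over COP-like cells were 40.4 and 34.0 CPM for Col1a1 and 165 and 174 CPM for Col1a2. Erythroid-like cells held 97.9 and 40.7 CPM of Col1a1 and 75.9 and 55.4 CPM of Col1a2, but in the vehicle library 1 cell had 30 of the 49 Col1a1 and 27 of the 38 Col1a2 UMIs. MALP-like cells held 862 and 1042 CPM of Col1a1, with 66.5% of the vehicle UMIs in 5 cells and medians over cells of 170 and 749 CPM. Their Col1a2 stood at 1924 and 2594 CPM, with medians of 1612 and 2137 CPM. The ratio of Col1a1 to Col1a2 UMIs was 1.61 and 1.36 in OB-like, 1.53 and 1.32 in Ocy-like and 1.3 and 1.12 in preOB-like cells, but 0.455 and 0.729 in COP-like and 0.448 and 0.402 in MALP-like cells. These ratios are of UMIs summed over cells, and few cells carried many of them. In the median cell Col1a1, the chain that type I collagen holds in excess, was above Col1a2 in OB-like cells. It was below Col1a2 in Ocy-like cells (989 against 1118 CPM with vehicle and 538 against 680 CPM with teriparatide). In preOB-like cells it was also below, at 1295 against 2578 CPM with vehicle and, by little, at 10999.9 against 11308 CPM with teriparatide.

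OB-like cells also carried the minor fibrillar chains. Col11a1 stood there at 4349 and 3282 CPM, Col5a2 at 3575 and 3473 CPM and Col11a2 at 2822 and 2627 CPM, while Col5a1, which joins Col5a2 in type V collagen, had 719 and 1012 CPM. The ratio of Col5a1 to Col5a2 was thus 0.201 and 0.291, against 0.551 and 0.666 in preOB-like and 1.13 and 0.993 in COP-like cells. Col11a1 to Col11a2 was 1.54 and 1.25 in OB-like and 1.44 and 1.52 in COP-like cells, but 10.2 and 12.2 in preOB-like cells, where Col11a1 (361 and 643 CPM) stood far above Col11a2 (35.3 and 52.8 CPM). The FACIT gene Col22a1 was nearly limited to OB-like cells, at 376 and 515 CPM, and was at or below 50.8 CPM in each other class. The transmembrane collagen gene Col13a1 (143 and 171 CPM) and the fibrillar Col24a1 (96.2 and 63.8 CPM), known from developing bone, were also found there, and Col5a3 was not, with 2 and 1 UMIs.

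The cartilage collagens followed another order. Col2a1 (ENSMUSG00000022483, chromosome 15 from 97975602 to 98004695) reached 40151 and 41966 CPM in COP-like and 34996 and 31238 CPM in hypertrophic cells, and the 3 type IX genes stood at 4953 and 4714 CPM (Col9a1), 5026 and 4832 CPM (Col9a2) and 6748 and 5897 CPM (Col9a3) in COP-like cells. Each type IX gene was at or below 17.9 CPM in OB-like, Ocy-like, preOB-like and MALP-like cells. By contrast Col11a1, with 5522 and 5614 CPM in COP-like cells, was 0.34 and 0.77 on the log2 scale above OB-like cells in the vehicle and teriparatide libraries. Type XI chains were thus abundant in both cartilage-like and bone-like cells, and type IX chains were not. Within type IX, the chains were near to even in COP-like cells, with Col9a1 to Col9a2 at 0.985 and 0.976 and Col9a3 to Col9a2 at 1.34 and 1.22. Col27a1, a fibrillar collagen of cartilage, had 957 and 1027 CPM in COP-like and 586 and 204 CPM in hypertrophic cells.

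Type I and type II mRNA met in some cells at low counts. When every cell was thinned to 3300 UMIs, at least 1 UMI each of Col1a1 and Col2a1 was seen in 31.2% and 31.9% of OB-like and 23.1% and 22.6% of COP-like cells, against 0% and 0.735% of erythroid-like cells. Col1a1 was seen in 100% of thinned OB-like cells and Col2a1 in 98.5% and 99.2% of COP-like cells. The shares with both are therefore close to those of the rarer gene. Taken singly, Col2a1 was seen in 0% and 8.09% of erythroid-like cells and Col1a1 in 9.09% and 10.3%. With at least 10 UMIs of each the thinned numbers were 6 and 3 OB-like and 1 and 0 COP-like cells. Col2a1 itself had 709 and 317 CPM in OB-like cells, 18.9 and 104 CPM in MALP-like and 14.1 and 60.6 CPM in preOB-like cells, beside 9.99 and 45.3 CPM in erythroid-like cells. The part of free RNA in the single cells that held both was not tested.

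The COP-like cells comprised 3 clusters, led by Cpm, Sfrp5 and Hhip (24 and 103 cells), by Chad (23 and 98) and by Ppa1 with the mitosis gene Top2a (19 and 64), and the collagens differed among them. Over both libraries and in this order, Col2a1 stood at 38774, 34381 and 52759 CPM, Col9a1 at 3583, 4255 and 6580.4 CPM and Col11a1 at 3882, 5027 and 8074 CPM, so that each was highest in the Ppa1-led cluster. Col9a3 had 4571, 4724 and 9126 CPM in the same order. A second set was highest in the Chad-led cluster: Col15a1, a multiplexin, had 60.5, 383 and 119.9 CPM, the FACIT gene Col12a1 516, 1376 and 943 CPM and Col6a3 325, 1061 and 825 CPM. Yet another set was found mainly in the Cpm-led cluster, namely Col8a2 (96.8, 31.3 and 27.3 CPM), Col26a1 (42.9, 4.09 and 4.55 CPM), Col4a2 (25.4, 2.92 and 2.6 CPM) and Col5a3 (14.8, 2.63 and 2.92 CPM). Col15a1 was itself among the 10 leading genes of the Chad-led cluster, and these values describe the clusters and were not tested. The median cell held most UMIs in the Ppa1-led cluster (39878, against 26134 and 28350).

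Col10a1 (ENSMUSG00000039462, chromosome 10 from 34389981 to 34397085), the gene of type X collagen, was highest in the hypertrophic cells. It had 114512 and 76546 CPM there (9967 and 43047 UMIs), at 55483 to 141388 CPM in the 5 cells of the vehicle library and at 847 to 128898 CPM in the 18 of the teriparatide library. In COP-like cells it had 3 and 4377 UMIs, and 95.4% of the latter lay in 5 of 265 cells. The highest of these held 2567 UMIs of Col10a1 (66851 CPM) with 7 of Ihh, the hedgehog ligand of prehypertrophic cartilage, and 46459.5 CPM of Col2a1. In erythroid-like cells Col10a1 stood at 0 and 6.61 CPM. The ratio in COP-like cells (log2 ratio 8.37, 6.82 to 10.65) therefore rested on few cells, and 0 and 201 UMIs (0 and 25.7 CPM) remained without the 5 cells with most UMIs of it in each library. When cells were gated directly on the markers in place of clusters, the ratio was 0.074.

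**Figure D4:**
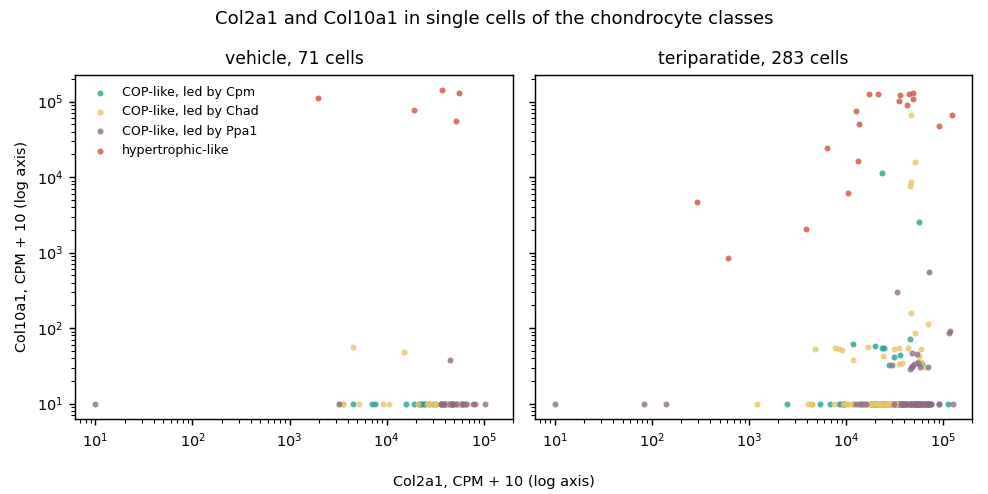
Col10a1 against Col2a1 in single COP-like and hypertrophic chondrocyte-like cells (CPM plus 10, log axes), by library, with colours for the 3 COP-like clusters. Vehicle hypertrophic cells lie at the top, and the 5 highest COP-like cells of the teriparatide library lie between 7513 and 66851 CPM of Col10a1, with vehicle COP-like cells at 46.2 CPM or less.

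Among the stromal collagens, Col3a1, Col12a1 and Col18a1 were highest in preOB-like cells in both libraries, and Col5a3 and Col16a1 only with teriparatide. Col3a1 (ENSMUSG00000026043, chromosome 1 from 45311538 to 45349706), the gene of type III collagen, stood there at 3696 and 6699 CPM, more than 3 on the log2 scale above the next class in each library. Col12a1, whose product binds type I fibrils, had 1049.9 and 1603 CPM and was also found in COP-like cells (835 and 976 CPM). Col5a3, another chain of type V, had 212 and 321 CPM in preOB-like cells, at 0.452 and 0.356 times the UMIs of Col5a1. For MALP-like cells it was 226 and 139 CPM, at 1.21 and 0.716 times Col5a1. Col16a1, a FACIT gene, had 236 and 298 CPM in preOB-like and 282 and 202 CPM in COP-like cells, and Col18a1, the multiplexin whose end fragment is endostatin, 42.3 and 68.3 CPM in preOB-like cells.

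The 3 main type VI chains were unequally spread. Col6a1 was highest in preOB-like cells (1484 and 1843 CPM), followed by MALP-like cells (1059 and 1077 CPM). COP-like (759 and 885 CPM) and hypertrophic cells (816 and 702 CPM) came next, and OB-like cells were lower (143 and 239 CPM). Col6a3 was present at 890.4 and 1965 CPM in preOB-like, 896 and 533 CPM in hypertrophic and 602 and 769 CPM in COP-like cells. In MALP-like cells Col6a3 was at 69.7 and 105 CPM. Its ratio to Col6a1 was therefore 0.0658 and 0.0974 in MALP-like cells, against 0.794 and 0.869 in COP-like and 0.60 and 1.07 in preOB-like cells. Col6a5, a chain that can take the place of Col6a3, was found almost only in MALP-like cells, with 146 and 28 UMIs. Col6a1 to Col6a2 was 1.05 and 1.26 in preOB-like, 1.14 and 1.21 in OB-like and 1.86 and 1.83 in COP-like cells. The genes lie on chromosome 10 on the same strand, 85161 bases apart.

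Among the classes, the basement membrane chains Col4a1 and Col4a2 were highest in MALP-like cells. Col4a1 had 1064 and 1229 CPM there and 677 and 787 CPM in preOB-like cells, and Col4a2 517 and 662 CPM and 294 and 402 CPM. These genes lie head to head on chromosome 8, with starts 21 bases apart, and their UMIs kept a ratio of 2.06 and 1.86 in MALP-like and 2.31 and 1.96 in preOB-like cells. In COP-like cells Col4a1 had 3 and 19 UMIs and Col4a2 29 and 73 UMIs, which puts Col4a2 above Col4a1 there. In preOB-like cells both went with the mural markers: in the 16 and 17 cells with a UMI of Rgs5 or Acta2, Col4a1 stood at 1214 and 1671 CPM, against 414 and 416 CPM in the 45 and 37 cells without. The cells with such a UMI thus held Col4a1 at a higher level than MALP-like cells in both libraries. Of the other type IV chains Col4a5 was found in hypertrophic cells (4 and 19 UMIs) and COP-like cells (4 and 67 UMIs), and Col4a3, Col4a4 and Col4a6 had 5, 22 and 7 UMIs in all barcodes together.

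The type VIII chains were found in different cells. Col8a1 had 1101 and 713 CPM in preOB-like cells. It had 506 and 781 CPM in MALP-like cells, where Col8a2 had 1 and 1 UMIs. Col8a2 stood at 109 and 39.1 CPM in COP-like cells, where Col8a1 had 1 and 19 UMIs. The ratio of Col8a1 to Col8a2 was 18.1 and 24 in preOB-like cells. Below the minimum of 50 UMIs in each library were 14 members: besides Col4a3 to Col4a6 these were Col6a4, Col6a5, Col6a6, Col7a1, Col14a1, Col17a1, Col19a1, Col20a1, Col23a1 and Col28a1. Col6a6 had none in any barcode, and Col14a1, a FACIT gene of stroma and tendon, had 11 in all barcodes. For a gene at 0 a count of 0 allows up to 3 UMIs, which is 1.33 CPM in OB-like cells of the vehicle library and 0.375 CPM in COP-like cells of the teriparatide library.

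Between the libraries the summed collagen level differed most in preOB-like and Ocy-like cells. In preOB-like cells it was 3.02% of UMIs with vehicle and 6.09% with teriparatide (log2 ratio with its interval 1.01, 0.99 to 1.03), and in COP-like cells the ratio was 0.033, 0.025 to 0.042. For MALP-like cells it was 0.33, 0.29 to 0.36, for OB-like cells -0.15, -0.16 to -0.15, for hypertrophic cells -0.43, -0.46 to -0.40 and for Ocy-like cells -1.48, -1.54 to -1.42. The median hypertrophic cell went the other way, at 13.9% and 15.5% of UMIs, with 5 and 18 cells. The alternative settings described below were not run for the sum of this class. The median log2 ratio over all genes with at least 50 UMIs in the class lay between -0.20 (COP-like) and 0.021 (Ocy-like), and the medians of the members were -0.0052 in OB-like, -1.63 in Ocy-like, 0.61 in preOB-like, -0.015 in COP-like, 0.36 in MALP-like and -0.24 in hypertrophic cells. Members with at least 50 UMIs in a class were called higher or lower past a ratio of 1.5-fold, the fold limit of the study's own comparison. The study also set a limit on the p-value, and no p-value was used here.

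**Figure D5:**
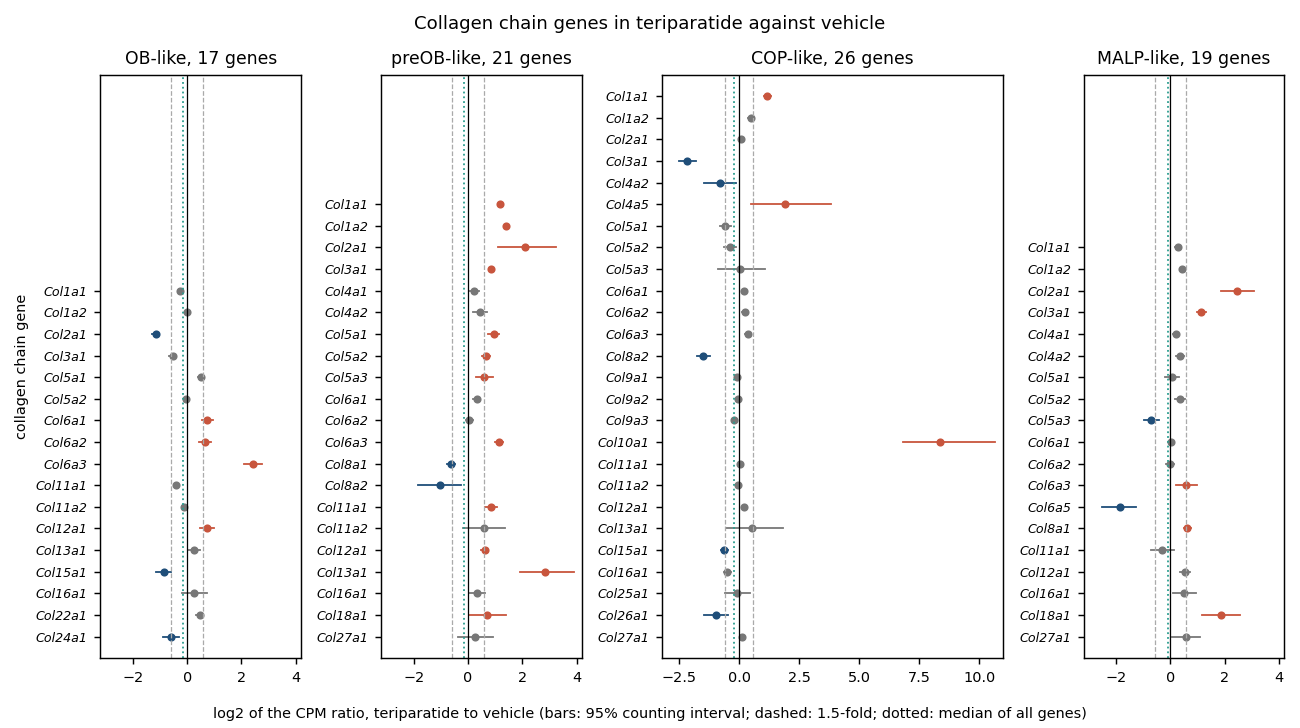
Log2 ratio of teriparatide to vehicle (x axis) with its counting interval for each member with at least 50 UMIs in the class, in 4 classes, with dashed lines at 1.5-fold and a dotted line at the median of all genes. Most members lie right of 0 in preOB-like cells, and Col10a1 stands far right in COP-like cells. Of 17 OB-like members 4 lie past the right dashed line, Col6a3 farthest (2.43), and 3 past the left one, Col2a1 farthest (-1.16).

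In preOB-like cells 12 of 21 members were higher in the teriparatide library (8.43% of the 4482 genes tested were) and 2 were lower (18.4% of all). The type I chains were the largest part of this. Col1a1 stood at 9725 CPM (vehicle) and 21874 CPM (teriparatide) (log2 ratio 1.17, 1.13 to 1.21), and its median over cells was 1295 and 10999.9 CPM. Col1a2 had 7501 and 19536 CPM (log2 ratio 1.38, 1.34 to 1.43). Without the type I chains the other members together still differed, at 1.3% and 1.95% of UMIs (log2 ratio 0.58, 0.54 to 0.62). Among the stromal and fibre-regulating chains, Col3a1 (log2 ratio 0.86), Col5a1 (0.94), Col5a2 (0.67), Col5a3 (0.60), Col11a1 (0.83) and Col12a1 (0.61) were all higher. In type VI only Col6a3 passed the limit (log2 ratio 1.14, 1.01 to 1.28), with Col6a1 at 0.31 and Col6a2 at 0.049. Col13a1, with 11 and 86 UMIs, had the largest ratio (log2 ratio 2.84, 1.92 to 3.89). Col2a1 was higher too (10 and 47 UMIs), but so was it in erythroid-like cells (9.99 and 45.3 CPM). Col8a1 (log2 ratio -0.63, -0.79 to -0.47) and Col8a2 (43 and 23 UMIs) were lower, and Col18a1 (30 and 53 UMIs) was higher. In male cells alone the ratio was -0.22 for Col5a3 and -1.12 for Col18a1, and in female cells alone 0.35 for Col8a2.

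The summed difference had the same direction in male cells (2.12% and 6.55% of UMIs, log2 ratio 1.63, 26 and 37 cells) and in female cells (2.77% and 4.18%, 0.59, 22 and 6 cells). It also had it in the 45 and 37 cells without a UMI of Rgs5 or Acta2 (3.60% and 7.11%, 0.98), where Col8a1 stood at 784 and 399 CPM, Col8a2 was at 0.15 on the log2 scale and Col1a1 at 12777 and 26732 CPM. When cells were gated directly on the markers in place of clusters, there were 29 and 52 cells, and the shares were 7.58% and 10.5% with a ratio of 0.48. Col3a1, Col6a1, Col11a1 and Col12a1 then had ratios below 0, and Col1a1 (0.54), Col5a1 (0.35), Col5a2 (0.024), Col5a3 (0.19) and Col6a3 (0.52) no longer passed the limit of 1.5-fold. Of the 14 members called, only Col1a2, Col2a1 and Col13a1 stayed past the limit under every alternative run for them. In female cells alone Col3a1 (0.44) and Col11a1 (0.56) were within it, and without cells holding Rgs5 or Acta2 so were Col5a3 (0.53) and Col12a1 (0.49). The lower Col8a1 was within it in thinned cells (-0.35), as the mean of single cells (-0.31) and in 3 other alternatives. The summed MALP markers in the class were 5546 and 2393 CPM, the preOB markers 1799 and 3203 CPM, the osteocyte markers 50.8 and 273 CPM and the tendon markers 131 and 9.02 CPM. The part of cell makeup in the difference was not tested.

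OB-like cells showed little difference in their main collagens. Col1a2 was at -0.0052 on the log2 scale and Col1a1 at -0.25, within the limit. Higher were 4 of 17 members (6.75% of all genes tested) and lower 3 (13.6%). All 3 type VI chains were among the higher: Col6a3 had 37.7 CPM (vehicle) and 202 CPM (teriparatide) (log2 ratio 2.43, 2.09 to 2.77), Col6a1 143 and 239 CPM (log2 ratio 0.74, 0.54 to 0.94) and Col6a2 126 and 198 CPM (log2 ratio 0.65, 0.44 to 0.87). Col12a1 was the fourth (log2 ratio 0.74, 0.49 to 1.00). In erythroid-like cells Col6a3 had 2.0 and 12.2 CPM, below the OB-like levels, and in male OB-like cells alone the ratio of Col6a3 was 2.02. Col6a3 and Col2a1 stayed past the limit under all 12 alternatives and the other calls did not. In male cells alone Col6a1 was at 0.20 and Col12a1 at 0.17, and in thinned cells Col6a2 was at 0.074 and Col12a1 at 0.12. The ratio of Col6a3 to Col6a1 was 0.263 and 0.847. Lower were Col2a1 (709 and 317 CPM; log2 ratio -1.16, -1.28 to -1.04), Col15a1 (log2 ratio -0.87, -1.16 to -0.58) and Col24a1 (log2 ratio -0.59, -0.89 to -0.29). In female OB-like cells alone Col15a1 stood at 0.10 and Col24a1 at -0.28 on the log2 scale. A small set of cells carried Col2a1, as 67.4% of the vehicle UMIs and 49.8% of the teriparatide ones lay in 5 cells each. Its median over OB-like cells went the other way, at 43.1 and 79.3 CPM. No UMI of Col2a1 was found in 39 of 95 and 20 of 93 cells. In this class the osteocyte markers summed to 253 and 1031 CPM, the hematopoietic markers to 11.5 and 162 CPM and the tendon markers to 55.4 and 134 CPM. Their part in these ratios was not tested.

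In Ocy-like cells 5 of the 5 members tested were lower (12.8% of all genes tested) and none was higher (17.8%), but few cells carried these UMIs. Col1a1 had 25036 CPM (vehicle) and 8445 CPM (teriparatide), and 98.3% of the vehicle UMIs lay in 5 of 18 cells. A single vehicle cell held 2663 of the 2956 Col1a1 UMIs, and 1722 of the 1935 Col1a2 UMIs also lay in 1 cell. The median Ocy-like cell held 0.259% and 0.181% of its UMIs in collagens. Col1a2, Col5a2, Col11a1 and Col11a2 were the other members, at log2 ratios of -1.35, -1.63, -1.65 and -2.45. The direction of the sum turned with up to 20% mitochondrial UMIs (1.44), with a direct marker gate (2.93) and in female cells (4.08), so no direction is given for this class.

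COP-like cells held their cartilage collagens at nearly the same level in both libraries. Col2a1 had a log2 ratio of 0.064, 0.052 to 0.075, and Col9a1 (-0.071), Col9a2 (-0.057), Col9a3 (-0.19), Col11a1 (0.024) and Col11a2 (-0.055) lay within 0.2 of 0. With the median gene as the scale Col9a1, Col9a2, Col9a3 and Col11a2 lay above 0. Of 26 members 3 were higher (8.16% of all genes tested) and 5 lower (17.0%). Col1a1 (log2 ratio 1.18, 1.02 to 1.33) and Col10a1 were higher through few cells, with 84% of the teriparatide Col1a1 UMIs in 5 cells and a Col1a1 ratio of -3.43 in female cells alone, and Col4a5 had 4 and 67 UMIs (log2 ratio 1.92, 0.50 to 3.84). Of the lower members, Col3a1 (log2 ratio -2.15, -2.52 to -1.79) went to 0.11 without the 5 highest cells of each library. Col8a2 (109 and 39.1 CPM; log2 ratio -1.48, -1.74 to -1.22), Col26a1 (log2 ratio -0.96, -1.44 to -0.46) and Col4a2 (log2 ratio -0.81, -1.45 to -0.14) were lower, and each was also lower within the Cpm-led cluster, at 227 and 69.8, 72 and 36.9, and 42.1 and 21.9 CPM. Col15a1 (log2 ratio -0.62, -0.77 to -0.47) had 598 and 335 CPM in the Chad-led cluster, and was at 0.41 in female cells alone and at -0.33 without the 5 highest cells of each library. Col4a2 was at -0.42 without them. Of the 8 members called, Col4a5, Col8a2 and Col26a1 stayed past the limit under every alternative run for them.

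In MALP-like cells 5 of 19 members were higher (8.24% of all genes tested) and 2 lower (10.1%). Col3a1 had 338 CPM (vehicle) and 746 CPM (teriparatide) (log2 ratio 1.14, 0.98 to 1.30), with 43.1% and 65.8% of cells holding a UMI after thinning, against 0% and 0.735% of erythroid-like cells. Col8a1 had 506 and 781 CPM (log2 ratio 0.63, 0.49 to 0.76), Col18a1 25 and 63 UMIs (log2 ratio 1.85, 1.16 to 2.58) and Col6a3 114 and 120 UMIs (log2 ratio 0.59, 0.21 to 0.97). Col2a1 had 18.9 and 104 CPM, beside 9.99 and 45.3 CPM in erythroid-like cells. Col5a3 (log2 ratio -0.70, -0.98 to -0.43) and Col6a5 (146 and 28 UMIs; log2 ratio -1.87, -2.50 to -1.27) were lower. The basement membrane chains Col4a1 (0.21) and Col4a2 (0.36) did not pass the limit, nor did Col6a1 (0.025). Col1a1 did not pass it either (0.27), though its median over cells was 170 CPM with vehicle and 749 CPM with teriparatide. Of the 7 members called, Col2a1, Col18a1 and Col6a5 stayed past the limit under all 12 alternatives. Col8a1 was at 0.064 in male cells alone, Col3a1 at 0.15 in female cells alone and Col6a3 at 0.18 in thinned cells, and Col5a3 was at -1.49 in male and 1.83 in female cells. Mural markers summed to 105 and 509 CPM in MALP-like cells, and 51 and 62 of these cells were male and 66 and 7 female. Their part in these ratios was not tested.

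The hypertrophic cells numbered 5 and 18, and their ratios rest on these. Higher were 2 of 14 members (24.3% of all genes tested), Col1a1 (4 and 180 UMIs) and Col1a2 (6 and 175 UMIs), and lower 3 (18.9%), Col5a2 (483 and 208 CPM), Col6a3 (896 and 533 CPM) and Col27a1 (586 and 204 CPM). The higher 2 rested on few cells: 157 of the 180 Col1a1 UMIs lay in 1 cell and 84.6% of the 175 Col1a2 UMIs in 5. Medians over cells were 54.8 and 40.7 CPM for Col1a1 and 110 and 83.8 CPM for Col1a2. No direction is read from these medians, as no vehicle cell held more than 2 UMIs of either gene. Erythroid-like cells held 97.9 and 40.7 CPM of Col1a1 and 75.9 and 55.4 CPM of Col1a2. Col10a1 was at -0.58, -0.61 to -0.55 and Col2a1 at -0.16, -0.22 to -0.11 on the log2 scale, within the limit.

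Collagen chains are modified, folded, trimmed and crosslinked by other proteins before they form fibres, and 32 such genes and 8 receptor genes that bind collagen were described beside the members. Of the processing genes with at least 50 UMIs, 2 of 24 were higher (8.43% of all genes tested were) and 1 lower (18.4%) in preOB-like cells. P4ha3, a subunit of prolyl hydroxylase, was one of the higher (24 and 67 CPM, log2 ratio 1.48, 0.67 to 2.37), and P4ha2, another such subunit, was lower (103 and 41.2 CPM, log2 ratio -1.32, -1.97 to -0.70). In OB-like cells 2 of 25 were higher (6.75% of all) and 1 lower (13.6%), the crosslinking gene Loxl2 (222 and 81.4 CPM, log2 ratio -1.45, -1.69 to -1.22). In MALP-like cells 0 of 26 were higher (8.24% of all) and 3 lower (10.1%). In COP-like cells, where the cartilage collagens differed little, 2 of 29 were higher (8.16% of all) and 10 lower (17.0%), among them Loxl2 (361 and 141 CPM, log2 ratio -1.35, -1.49 to -1.21), the procollagen peptidase enhancer Pcolce (268 and 139 CPM, log2 ratio -0.94, -1.1 to -0.78) and Serpinh1, the collagen chaperone of the endoplasmic reticulum (2964 and 1896 CPM, log2 ratio -0.64, -0.69 to -0.60). Pcolce2, a gene of the same kind as Pcolce, was higher (828 and 1318 CPM with log2 ratio 0.67, 0.59 to 0.75). Serpinh1 had log2 ratios below 0 in all 6 classes, from -1.42 in hypertrophic to -0.22 in preOB-like cells, and passed the limit in COP-like, Ocy-like and hypertrophic cells. The median of all genes was itself below 0 in preOB-like (-0.14), OB-like (-0.14), COP-like (-0.20) and MALP-like cells (-0.080). Among the receptors, Mrc2, which takes up collagen for breakdown, was higher in preOB-like (102 and 213 CPM, log2 ratio 1.07, 0.66 to 1.49), MALP-like (92.9 and 159 CPM, log2 ratio 0.78, 0.46 to 1.10) and OB-like cells (122 and 193 CPM, log2 ratio 0.67, 0.45 to 0.88). The integrin gene Itga10, known as a receptor for type II collagen, was higher in COP-like (45.3 and 96.7 CPM, log2 ratio 1.09, 0.76 to 1.44) and preOB-like cells (25.4 and 72.2 CPM, log2 ratio 1.51, 0.72 to 2.36). Few receptor genes had 50 UMIs in a class. Higher were 1 of 5 in OB-like cells (6.75% of all genes tested), 2 of 6 in preOB-like (8.43%) and 2 of 6 in COP-like (8.16%). In MALP-like cells it was 1 of 6 (8.24%), in hypertrophic 1 of 2 (24.3%) and in Ocy-like 0 of 2 (17.8%). None of these was lower, where 10.1% to 18.9% of all genes were. The alternatives run for the members were not run for the processing and receptor genes.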

How the data were processed

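One library per group was made from sorted cells with the 3' kit of 10x Genomics (v2 chemistry). The deposited values are raw counts of UMIs per gene and barcode, which the authors obtained with Cell Ranger on mm10. The labels name version 2.1.0 and the file header 3.1.0. Cells were kept with 200 to 6000 genes and at most 10% mitochondrial UMIs, the limits of the study. In Seurat 5.3.0 (R 4.3.3) both libraries were joined by canonical correlation (CCA) and clustered on 20 principal components at a resolution of 0.6, hematopoietic-like and erythroid-like clusters were set aside, and the rest was clustered again. The collagens, markers, processing genes, Xist and Y-linked genes (164 genes) were kept out of the 2000 variable genes. A cluster was named from at least 3 detected markers. A direct marker gate gave the same class for 767 of 823 cells named by both (93.2%), with 67 cells near the gate. Scrublet in scanpy 1.11.5 marked 1 of 549 and 0 of 1217 cells. Whether the caller worked on these cells was not tested, and doublets may remain. Sums of counts were compared in Python 3.11.15 with scipy 1.17.1 and numpy 2.4.6, with exact Poisson intervals for CPM, exact Clopper-Pearson intervals for shares and the conditional binomial interval for the ratio of a pair of counts, all at 95% and covering counting error only. Members with at least 50 UMIs in a class over both libraries were called past 1.5-fold, and percentages of all genes are of those with as many UMIs there. The scripts were tested on simulated data. Cells with a UMI of a Y-linked gene (Kdm5d, Uty, Eif2s3y or Ddx3y) but not of Xist were called male, and those with Xist alone female. The mice of a group are taken as pooled in its library. Named members are the most abundant and those with the largest ratios of each class, the chains of types I to VI and VIII to XI, and the other chains known in cartilage, bone and perichondrium. Members, lists and alternatives were chosen with earlier results of these data known. Alternatives covered the mitochondrial limit, resolution, gate, depth, sex, scale, minimum, fold and highest cells. Positions are from GENCODE vM21 on GRCm38, and promoter windows from RefSeq.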

Additional observations from a re-analysis of the deposited data

Results flagged for a closer look

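For some members the log2 ratio of teriparatide to vehicle had opposite signs in male and female cells, with counting intervals on opposite sides of 0 in each sex. The difference between the sexes was not tested. In Ocy-like cells it was -5.67 in male and 4.38 in female cells for Col1a1, and -4.71 and 4.11 for Col1a2. There were 9 and 21 male and 4 and 4 female Ocy-like cells in the vehicle and teriparatide libraries. In COP-like cells Col1a1 had 2.75 in male and -3.43 in female cells, and Col1a2 1.23 and -2.58. In preOB-like cells the basement membrane chains differed in this way, Col4a1 with -1.09 and 1.49 and Col4a2 with -0.63 and 1.13, where 22 vehicle and 6 teriparatide cells were female. In MALP-like cells Col1a1 had 1.58 and -0.78, and Col5a3 -1.49 and 1.83, with 7 female cells in the teriparatide library.

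Collagen chain UMIs were also found in cells that the comparisons do not use, above the level in erythroid-like cells. In a cluster that could not be named, with 54 and 61 cells and a median of 2333 UMIs, they held 8.02% and 12.9% of UMIs. In the 718 and 862 barcodes over the mitochondrial limit they held 4.45% and 6.9%.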

How the results depend on the processing

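With 1 library per group, the intervals cover counting error only, a ratio of few UMIs or few cells is imprecise, and library, mice and sex makeup cannot be told apart from treatment. No paired analysis was possible because each group has 1 library. The preOB-like sum was higher in teriparatide under all 12 alternatives (log2 ratio 0.48 to 1.63), the MALP-like sum under all 11 (0.28 to 0.41), and the OB-like sum was lower under all 11 (-0.63 to -0.012). The alternatives counted here, and those counted for single members above, include leaving out the cells marked by Scrublet. No cell of these classes was marked, so that alternative could not change a result. At a resolution of 1.0 the preOB-like cells also stayed at 61 and 54, with the same values. The OB-like class then took in a cluster of 22 and 50 cells, led by S100a9 and S100a8, with a median of 1221.5 UMIs. It was therefore not the same class. With up to 20% mitochondrial UMIs the preOB-like class took in another cluster, led by Top2a, of 12 and 21 cells. That cluster held 4 of 5 preOB and 3 of 7 COP markers, so the class was not the same one. Col2a1 in this class was then at 7.22 on the log2 scale. Under the same limit the OB-like class took in another cluster of 8 and 8 cells, and the MALP-like class another of 43 and 25 cells. The COP-like sum ranged from -0.035 to 0.24 and the Ocy-like sum from -4.84 to 4.08. Over the alternatives the collagen share of UMIs ranged over 23.1% to 31.1% and 15.1% to 27.2% in OB, 0.328% to 7.7% and 0.27% to 5.94% in Ocy, 2.12% to 7.58% and 4.18% to 10.5% in preOB, 6.62% to 8.07% and 6.94% to 8.03% in COP and 0.818% to 0.862% and 1.03% to 1.13% in MALP, in the vehicle and teriparatide libraries. The causes of the differences below were not tested. Counts of members below are given without the number tested and the share over all genes under each setting. They therefore cannot be set against what all genes would give. With cells of up to 20% mitochondrial UMIs, the summed log2 ratio was -0.12 in OB, 1.44 in Ocy (reversed), 1.09 in preOB and 0.062 in COP, members higher numbered 2 in OB and 2 in Ocy, members lower numbered 0 in Ocy and the reversed genes were Col1a1 in Ocy (1.54), Col1a2 in Ocy (1.6) and Col11a2 in Ocy (1.23). In male cells, the summed log2 ratio was -0.20 in OB, -4.84 in Ocy and 1.63 in preOB, members higher numbered 5 in COP, members lower numbered 4 in preOB and the reversed genes were Col5a3 in preOB (-0.22) and Col18a1 in preOB (-1.12). In female cells, the summed log2 ratio was -0.63 in OB, 4.08 in Ocy (reversed), 0.59 in preOB, -0.035 in COP (reversed) and 0.39 in MALP, members higher numbered 2 in Ocy and 1 in COP, members lower numbered 0 in Ocy and 1 in preOB and the reversed genes were Col15a1 in OB (0.10), Col1a1 in Ocy (4.38), Col1a2 in Ocy (4.11), Col5a2 in Ocy (0.99), Col11a1 in Ocy (1.24), Col8a2 in preOB (0.35), Col1a1 in COP (-3.43), Col11a2 in COP (0.071), Col15a1 in COP (0.41), Col1a1 in MALP (-0.78) and Col5a3 in MALP (1.83). With cells thinned to 1 depth, the summed log2 ratio was -0.068 in OB, -1.33 in Ocy, 1.04 in preOB and 0.078 in COP, members higher numbered 1 in COP and 3 in MALP, members lower numbered 2 in Ocy, 0 in preOB, 3 in COP and 0 in MALP and the reversed genes were Col1a1 in COP (-0.0087) and Col9a1 in COP (0.058). With a direct marker gate, the summed log2 ratio was -0.14 in OB, 2.93 in Ocy (reversed), 0.48 in preOB, -0.0081 in COP (reversed) and 0.39 in MALP, members higher numbered 5 in Ocy, 7 in preOB and 1 in COP, members lower numbered 0 in Ocy, 1 in preOB and 1 in MALP and the reversed genes were Col1a1 in Ocy (3.31), Col1a2 in Ocy (2.95), Col5a2 in Ocy (1.40), Col11a1 in Ocy (1.07), Col11a2 in Ocy (1.87), Col3a1 in preOB (-0.39), Col6a1 in preOB (-0.035), Col11a1 in preOB (-0.36) and Col12a1 in preOB (-0.19). With the mean of single cells, the summed log2 ratio was -0.067 in OB, -1.93 in Ocy, 0.066 in COP and 0.28 in MALP, members lower numbered 1 in preOB and the reversed genes were Col9a1 in COP (0.021) and Col9a2 in COP (0.049). With UMIs of other genes as the denominator, the summed log2 ratio was -0.20 in OB and 1.06 in preOB and members lower numbered 1 in preOB. With the median ratio as the scale, the summed log2 ratio was -0.012 in OB, 1.15 in preOB, 0.24 in COP and 0.41 in MALP, members higher numbered 5 in COP and 8 in MALP, members lower numbered 1 in preOB and the reversed genes were Col11a2 in OB (0.037), Col9a1 in COP (0.13), Col9a2 in COP (0.15), Col9a3 in COP (0.010) and Col11a2 in COP (0.15). With a minimum of 20 UMIs, members higher numbered 8 in OB, 1 in Ocy, 5 in COP and 8 in MALP. With 1 UMI in each library as the minimum, members higher numbered 13 in OB, 3 in Ocy, 6 in COP and 11 in MALP and members lower numbered 6 in OB, 11 in Ocy and 8 in COP. With a limit of 2-fold, members higher numbered 1 in OB, 5 in preOB and 3 in MALP and members lower numbered 1 in OB, 1 in preOB, 2 in COP and 1 in MALP. At a clustering resolution of 1.0, the summed log2 ratio was -0.45 in Ocy, members higher numbered 1 in Ocy and members lower numbered 2 in Ocy. Without the 5 cells with most UMIs of the gene in each library, the reversed genes were Col1a2 in Ocy (0.24), Col11a1 in Ocy (0.61), Col3a1 in COP (0.11), Col9a1 in COP (0.033), Col9a2 in COP (0.074) and Col11a2 in COP (0.082). In preOB-like cells without Rgs5 or Acta2, the summed log2 ratio was 0.98 in preOB, members lower numbered 1 in preOB and the reversed genes were Col8a2 in preOB (0.15). Subtracting the erythroid-like level and leaving out cells with Rgs5 or Acta2 were chosen after seeing the data. Subtraction reversed none of these results, but Col6a2 in OB (0.561) and Col6a3 in MALP (0.455) then no longer passed the limit of 1.5-fold.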

Other observations

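Several collagen chain genes lie beside each other in the genome. Col4a1 and Col4a2 were both highest in MALP-like cells, and Col6a1 and Col6a2 both in preOB-like cells, in both libraries. Col3a1 and Col5a2 lie on opposite strands of chromosome 1 with 24614 bases between them. Col3a1 was highest in preOB-like cells and Col5a2 in OB-like cells, in both libraries. Col4a4 and Col4a3 lie head to head on chromosome 1, 72 bases apart at their starts, and had 22 and 5 UMIs in all barcodes. Col4a6 and Col4a5 lie head to head on chromosome X with starts 1309 bases apart, and had 7 and 101 UMIs. Nothing was tested on these pairs.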
